A study of Mus musculus with 2 samples.

Results

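The genes described here encode components and receptors of the complement system, together with C1 inhibitor, which restrains it. They are *C1qa*, *C1qb*, *C1qc*, *C3*, *C4b*, *C3ar1*, *C5ar1*, *Serping1* and *Masp1*. Every probe set whose annotation on the array names exactly 1 gene, that gene being among these 9, was taken. This gave 16 of the 45101 probe sets and covered 7 of the 9 genes. *C3* had no probe set named for it in the annotation used here, and *C4b* was named only on 1 probe set that also carries the name of *C4a*, so neither has a value of its own. A probe set is a group of short probes on the array that match 1 transcript or a family of transcripts.

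Total RNA came from brain mononuclear cells, the cells of digested whole brain that gather at an interface of a Percoll density gradient. The WT pool held RNA of 7 male mice aged 10 to 15 wks, and the CD47 KO pool held RNA of 6 male mice aged 12 to 16 wks that lack CD47, the membrane ligand of SIRPα, in all cells. Amplification started from 20 ng of RNA, and each pool was read on 1 array, so no difference given here has a replicate, a p-value or an error between animals. Values are MAS5 signals, which measure the brightness of a probe set on a linear scale, and changes are given as the Log2 ratio of the CD47 KO signal over the WT signal.

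Complement is a cascade of plasma and tissue proteins that marks targets for removal by phagocytes. In its classical pathway, C1q, built of A, B and C chains, binds a target and activates serine proteases that cleave C4 and C2. The lectin pathway starts with sugar-binding proteins and the MASP proteases, and both routes meet at C3. The cleavage fragments C3a and C5a act on the receptors C3aR1 and C5aR1 of myeloid cells. Microglia are known as the main source of C1q in the brain, where complement is known for its part in the removal of synapses.

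The promoters of the members with bright probe sets are shown because the chains of C1q are encoded side by side on chromosome 4, in the order *C1qb*, *C1qc* and *C1qa* with no other annotated gene starting between them. RefSeq on GRCm38.p6 gave a promoter, 250 bases before to 50 after the gene's start, for 5 of the 9 genes, 1 of them *C3*. *C1qa*, *C4b*, *Serping1* and *Masp1* had none in the table used. The other 4 follow, each on the minus strand of the genome and written 5′ to 3′ along the gene, at chr4:136886151-136886450, chr4:136892865-136893164, chr6:122856108-122856407 and chr7:16259289-16259588. Capitals mark the letters GAGGAA on either strand, the core of sites of PU.1, a transcription factor of myeloid cells.
C1qb: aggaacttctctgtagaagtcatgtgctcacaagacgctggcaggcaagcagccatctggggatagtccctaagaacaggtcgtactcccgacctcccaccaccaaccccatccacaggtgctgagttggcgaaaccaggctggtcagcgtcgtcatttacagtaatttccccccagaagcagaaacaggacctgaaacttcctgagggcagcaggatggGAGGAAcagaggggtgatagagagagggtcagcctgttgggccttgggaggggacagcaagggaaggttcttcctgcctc
C1qc: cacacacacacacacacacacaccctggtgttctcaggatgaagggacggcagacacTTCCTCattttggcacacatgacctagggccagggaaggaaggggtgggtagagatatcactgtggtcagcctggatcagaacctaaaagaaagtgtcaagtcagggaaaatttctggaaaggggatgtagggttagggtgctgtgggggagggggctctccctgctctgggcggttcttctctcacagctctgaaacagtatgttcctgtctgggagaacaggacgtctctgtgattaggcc
C3ar1: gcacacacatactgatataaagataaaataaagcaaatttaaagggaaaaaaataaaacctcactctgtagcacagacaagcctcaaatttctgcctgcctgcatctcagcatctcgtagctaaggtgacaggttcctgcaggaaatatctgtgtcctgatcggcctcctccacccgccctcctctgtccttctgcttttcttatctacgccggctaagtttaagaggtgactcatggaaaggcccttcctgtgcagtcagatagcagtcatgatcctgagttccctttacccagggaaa
C5ar1: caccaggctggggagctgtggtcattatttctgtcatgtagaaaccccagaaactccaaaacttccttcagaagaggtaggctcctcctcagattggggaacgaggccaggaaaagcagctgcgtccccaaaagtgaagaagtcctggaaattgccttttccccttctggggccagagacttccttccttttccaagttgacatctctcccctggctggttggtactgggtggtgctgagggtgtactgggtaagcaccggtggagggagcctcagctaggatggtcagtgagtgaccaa
The *C1qb* promoter held 1 match, which began 30 bases before the gene's start, and the *C1qc* promoter held 1, on the opposite strand, beginning 193 bases before it. The promoters of *C3ar1* and *C5ar1* held none. Of 32851 promoters of the same length, 28.3% held these letters, so 2 of 4 is a description and no site is implied. No match to TTGCNNAA (C/EBP), TTCNNNGAA (GAS) or the interferon response motif was found in these 4 windows, and the letters stood in 10.8%, 8.30% and 3.44% of all promoters. TATAAA was found once, in the *C3ar1* window 235 bases before the start, and in 13.6% of all promoters. Both strands were searched, and the motifs were counted separately where they overlapped.

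The labels were checked against the data. All 5 probe sets of *Cd47* were lower on the CD47 KO array, with Log2 ratios of -1.86 to -1.45, but stayed expressed there, at signals of 334 to 1688. Which part of the transcript they read in relation to the disrupted part of the gene was not determined here. Of 12 listed microglial marker genes, 11 had a named probe set and all 11 were bright on both arrays, *Csf1r* at a signal of 15185 in WT and 15949 in CD47 KO cells. Markers of neutrophils, neurons, astrocytes and choroid plexus were bright too, so the preparation held more than microglia. Array medians were 161 (WT) and 146 (CD47 KO). Probe sets that reached the array's median in 1 pool or both are called expressed, and 21167 of 34945 probe sets with 1 gene name did so. Centring each array on its own median would raise the median Log2 ratio of all expressed genes from 0.00 to 0.14, and values are given as deposited unless stated.

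Of the 16 complement probe sets, 13 were expressed and 3, all of *Masp1*, were not. More than 2-fold higher in CD47 KO cells were 2 probe sets, both of *Masp1*, and 1 was more than 2-fold lower, that of *Serping1*. The other 10 lay within 2-fold. Among all expressed probe sets, 3.95% were more than 2-fold higher and 5.49% more than 2-fold lower, and after centring 5.44% and 4.12%. These shares depended on the threshold and on brightness. With the median required on both arrays, 1.38% were more than 2-fold higher and 2.29% more than 2-fold lower. A probe set with a mean signal below both array medians could be expressed only if its signals differed. Part of the shares at the dim end was therefore fixed by the threshold. From the dimmest to the brightest 25% of expressed probe sets, 10.2%, 3.97%, 1.46% and 0.189% were more than 2-fold higher and 13.7%, 5.61%, 1.95% and 0.699% more than 2-fold lower. The median Log2 ratio of the 7 genes, each taken at its brightest probe set, was 0.12, with 6 higher and 1 lower. Over 11695 expressed genes it was 0.00, and 50.3% were higher. At these probe sets the C1q chains, *C3ar1* and *C5ar1* fall in the brightest 25%. There the median Log2 ratio was 0.05 and 59.0% of probe sets were higher. *Masp1* counted as expressed only through its CD47 KO signal. After a loess correction for brightness, *C1qb* (-0.02) and *C5ar1* (-0.01) were below 0. By size of change the genes formed 3 groups. The C1q chains and *C5ar1* differed little between the genotypes, *C3ar1* was moderately higher, and *Masp1* and *Serping1* passed 2-fold in opposite directions.

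**Figure D1:**
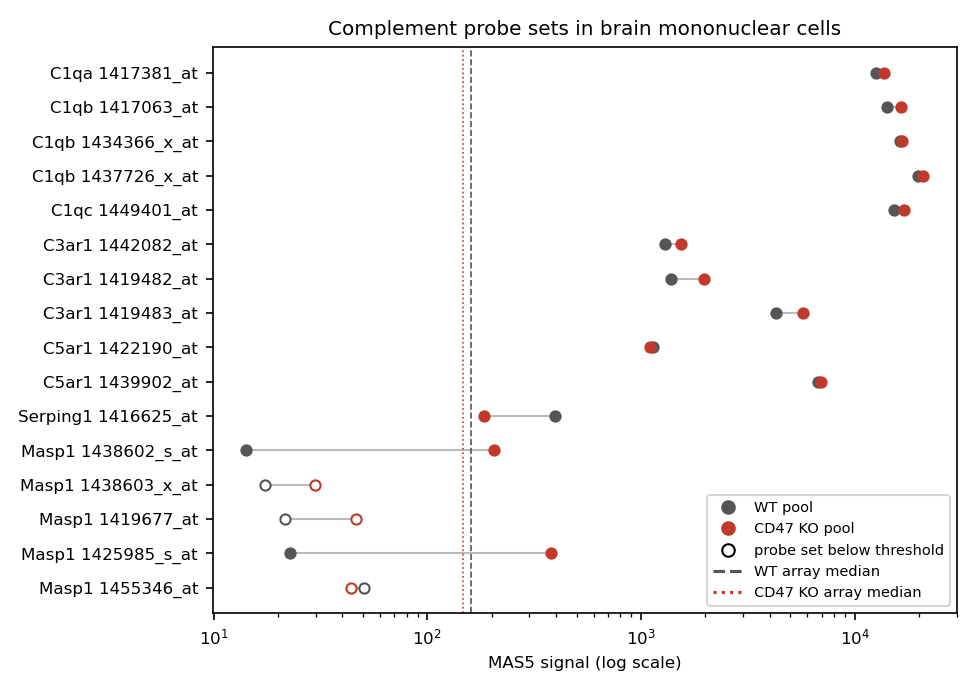
MAS5 signal (log scale) of each of the 16 complement probe sets in the WT pool (grey) and the CD47 KO pool (red), 1 array each, so there are no error bars. Vertical lines mark the array medians of 161 and 146, and open circles are the 3 *Masp1* probe sets below the threshold. The C1q probe sets sit at 12538 or more in both pools, while 2 *Masp1* probe sets run from 22.9 to 378 and from 14.2 to 206.

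The probe sets of C1q were among the brightest of both arrays, 254 WT signals reaching the lowest of them, and were nearly level between the genotypes. Brightness also depends on the probes and is no measure of transcript number between genes. *C1qa*, which encodes the A chain, went from 12538 (WT) to 13659 (CD47 KO), a Log2 ratio of 0.12. *C1qc*, for the C chain, had 15262 and 17053, a Log2 ratio of 0.16. Both were slightly brighter in the CD47 KO pool. *C1qb*, for the B chain, was read by 3 probe sets. The brightest had 19785 and 20909 (Log2 ratio 0.08), another had 16244 and 16622 (0.03), and the last had 14097 and 16412 (0.22). All 5 C1q probe sets were thus higher in CD47 KO cells as deposited, but by 1.02- to 1.16-fold only. The A, B and C chain genes differed from each other by less than the probe sets of *C1qb* did among themselves (SD 0.10 on the Log2 scale, 3 probe sets).

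At this brightness the arrays differed little for most probe sets. The 294 expressed probe sets with a mean signal of 10000 or more, a limit chosen after the C1q values were seen, had a median Log2 ratio of 0.08, and 90% of them lay between -0.07 and 0.21. Of the C1q probe sets, 4 lay inside that range and the dimmest of *C1qb* lay just above it. After quantile normalization, which gives both arrays the same distribution of signals, the median of these bright probe sets was -0.01. *C1qa* then had a Log2 ratio of 0.04, *C1qc* 0.08 and the brightest *C1qb* probe set -0.01. After a loess correction for brightness the values were 0.04, 0.07 and -0.02. The direction for *C1qb* on its brightest probe set therefore turned with the scaling, and the values for *C1qa* and *C1qc* stayed above 0.

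The receptors for the cleavage fragments were both bright, and they differed from each other in their ratios. *C3ar1*, which encodes the receptor of C3a, was higher in CD47 KO cells on each of its 3 probe sets. Their signals were 4278 and 5744 in WT and CD47 KO cells on the brightest, 1382 and 1976 on the next, and 1293 and 1540 on the last. The Log2 ratios were 0.43, 0.52 and 0.25, or 1.34-, 1.43- and 1.19-fold. In the brightest 25% of expressed probe sets, which holds all 3, a higher ratio was seen in 6.20%, 3.87% and 17.8% of 5292 probe sets. *C5ar1*, the receptor gene for C5a, had signals of 6723 and 6983 on its brighter probe set and of 1133 and 1105 on the other. Its Log2 ratios of 0.05 and -0.04 lay on either side of 0. The probe sets of *C3ar1* ranged from 0.25 to 0.52 and those of *C5ar1* from -0.04 to 0.05, so the ranges of these receptor genes did not overlap. After quantile normalization and loess, which correct by brightness, the lowest *C3ar1* values were 0.25 and 0.24 and the highest *C5ar1* values 0.00 and -0.01. Probe sets of a gene read the same pools, so the spread between them is no error between animals. For genes of like brightness, the SD of Log2 ratios between probe sets of a gene was 0.44. With 1 array per genotype, this difference between the receptors has no test.

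**Figure D2:**
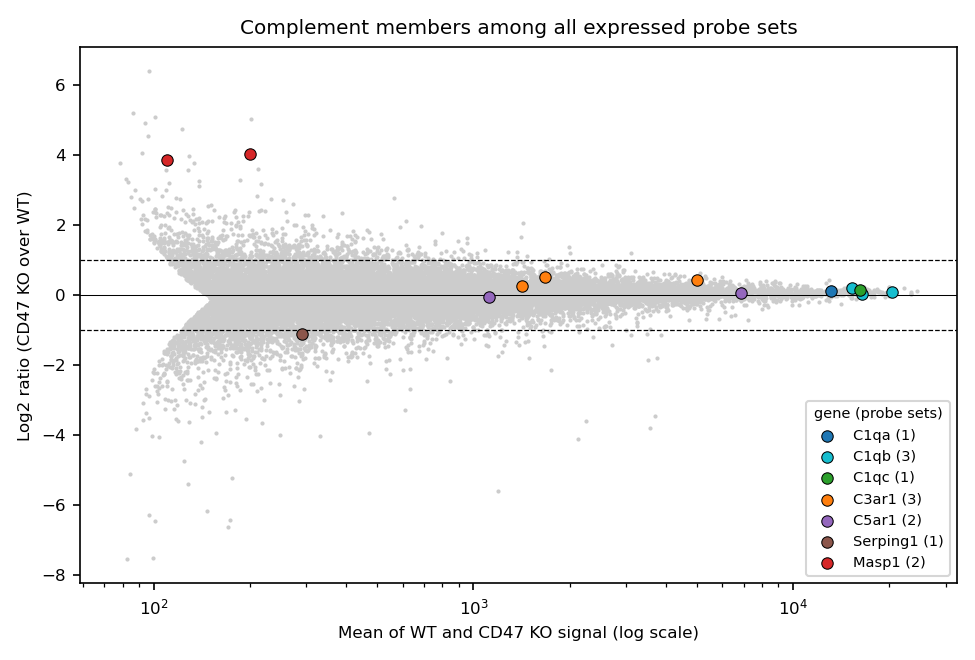
Log2 ratio (CD47 KO over WT) of every expressed probe set (grey, 21167) against its mean signal over both arrays (log scale), with the 13 expressed complement probe sets in colour and 2-fold marked by dashed lines. The scatter of all probe sets narrows with brightness, the C1q genes sit at the narrow end near 0, and *Masp1* lies at 4.05 and 3.86 in the wide, dim part. Points are missing at the left near 0 because a probe set had to reach 1 array's median. Dim probe sets passed only with unlike signals, so part of the width at the dim end comes from the threshold.

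Markers of microglia were also higher on the CD47 KO array. All 11 microglial markers had a Log2 ratio above 0, from 0.02 for *Sall1* to 0.66 for *Cx3cr1*, with a median of 0.25, and 9 of 11 did after quantile normalization or loess, with medians of 0.18 and 0.17. The signal summed over the markers with a probe set was 81258 in WT and 96608 in CD47 KO cells, and none was at 0. Of these 11 genes, 3 had a higher ratio than *C3ar1*, 7 a higher ratio than *C1qc*, 9 than *C1qa*, 9 than *C1qb* and 10 than *C5ar1*. The bright complement genes were thus placed within the range of the microglial markers, *C3ar1* towards its top and the C1q chains and *C5ar1* towards its bottom. A rise was not particular to microglial markers. Of 8 expressed astrocyte markers 7 were higher, with a median of 0.27, or 0.21 after loess. Among the 5292 expressed probe sets of like brightness, 59.0% were higher, with a median of 0.05. In pooled bulk RNA, more cells of a type and more RNA per cell cannot be told apart. The part of microglial RNA in the values of the complement genes was not tested.

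*Serping1*, which encodes C1 inhibitor, the serpin that blocks C1r, C1s and the MASP proteases, was the only one of the 7 genes to be lower at its brightest probe set. Its 1 probe set (1416625_at) went from 395 (WT) to 185 (CD47 KO), a Log2 ratio of -1.09 or 2.14-fold lower in CD47 KO cells. The CD47 KO signal lay little above the array median of 146. Among the 5291 expressed probe sets of like brightness, 5.61% were more than 2-fold lower and 4.37% had a lower ratio than *Serping1*. After centring of the arrays its Log2 ratio was -0.96, and with a constant of 39.2 (the 25th percentile of all signals) added to both signals it was -0.95, so the value lay on either side of 2-fold. No other probe set of the gene was at hand to set beside it.

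Markers of stromal and vascular cells, in which *Serping1* is known to be expressed, and of border-associated macrophages were lower in the CD47 KO pool as well. All 10 fibroblast and meningeal markers were expressed, of which 8 were lower, with a median Log2 ratio of -0.78, and their summed signal went from 7278 to 4803. Of 8 expressed markers of pericytes and smooth muscle 6 were lower (median -0.51, summed signal 10919 and 6980), and of 9 endothelial markers 7 were lower (median -0.37, 15813 and 14106). All 6 expressed markers of border-associated macrophages were lower, with a median of -0.60 and summed signals of 4412 and 3129. Centring the arrays left the fibroblast and pericyte counts as they were and gave 5 of 9 endothelial and 4 of 6 macrophage markers lower. No marker of these lists was at 0 on either array. The highest Log2 ratios were 0.84 (*Pdgfra*) in the fibroblast list and 1.17 (*Abcc9*) in the pericyte list. Other lists were lower too. Of 6 expressed choroid plexus markers 4 were lower (median -0.48), and of 4 B cell markers 4 were (median -0.35), or 3 after centring. *Serping1* lay below the median of each list, and the part of these cells in its ratio was not tested.

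**Figure D3:**
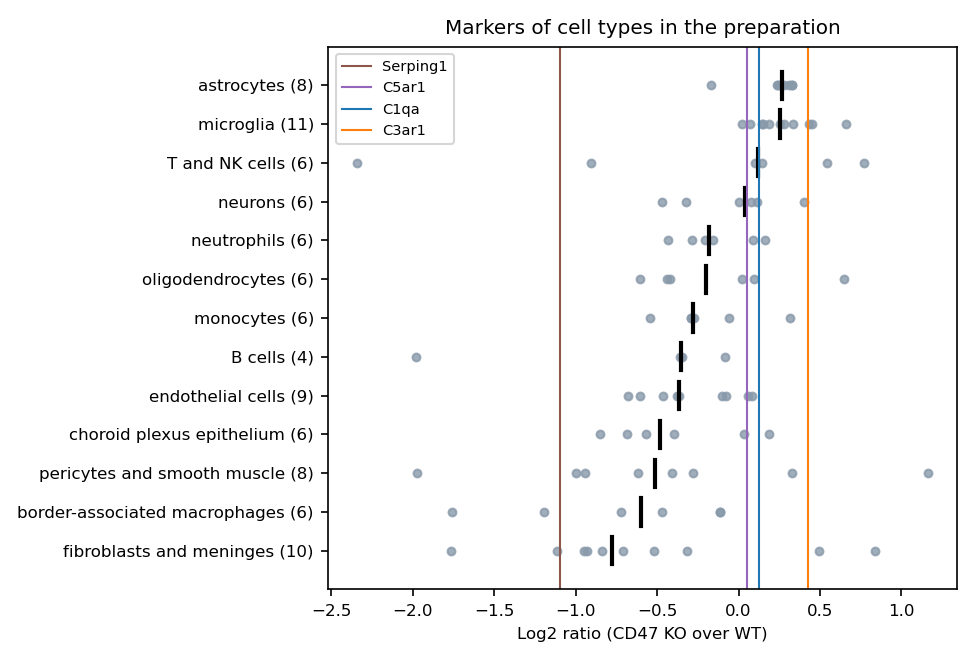
Log2 ratio (CD47 KO over WT) of the expressed marker genes of each cell type (points, with the gene number after each name) and each list's median (black bar), 1 array per genotype. Vertical lines mark *Serping1* at -1.09, *C5ar1* at 0.05, *C1qa* at 0.12 and *C3ar1* at 0.43. Microglial markers lie between 0.02 and 0.66, and fibroblast and meningeal markers have a median of -0.78.

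*Masp1* had the largest change of the members, and its probe sets disagreed. The gene encodes the lectin pathway proteases MASP-1 and MASP-3 and a shorter protein without protease activity, made by alternative splicing. The brighter probe set in CD47 KO cells (1425985_s_at) went from 22.9 (WT) to 378 (CD47 KO), a Log2 ratio of 4.05 or 16.5-fold. Another (1438602_s_at) had 14.2 and 206, a Log2 ratio of 3.86 or 14.5-fold. Both were far below the median in WT cells and above it in CD47 KO cells. The other 3 were below the median on both arrays. 1419677_at had 21.6 and 46.3 (Log2 ratio 1.10), 1438603_x_at had 17.5 and 29.9 (0.78), and 1455346_at had 50.5 and 44.0 (-0.20). The gene therefore passed the array median only in the CD47 KO pool and only on 2 of its 5 probe sets. Detection calls were not used, so presence in CD47 KO cells and absence from WT cells were not shown. Both probe sets that passed it carry the suffix that marks probes shared by several transcripts. Which transcripts each reads, of this gene or of another, was not determined here.

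The size of the *Masp1* change rests on WT signals that were near the bottom of the array. The 25th percentile of the WT signals was 43.0, and the WT signals of 4 of the 5 probe sets lay under it. With low signals raised to the 25th percentile of all signals (39.2), the Log2 ratio of the brightest probe set was 3.27, and with that constant added to both signals it was 2.75. The mean over all 5 probe sets was 1.92. In the dimmest 25% of probe sets, to which both belong, 10.2% passed 2-fold upward. A probe set that was dim in WT cells entered this set only because it was bright in CD47 KO cells, so its difference was partly fixed by the threshold and no rank is given for it.

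The remaining genes of the pathway were taken from a list of 61 complement genes by role, the members included. Of these, 49 had a probe set of their own and 25 were expressed, 14 higher and 11 lower in CD47 KO cells, with a median Log2 ratio of 0.08, or 12 higher and 13 lower with a median of -0.01 after loess. Past 2-fold on the brightest probe set, 2 were higher (*Masp1* and *Itgax*) and 1 lower (*Serping1*), where 3.56% and 5.46% of all 11695 expressed genes were. Without the members, the 18 other expressed genes had a median of -0.15, with 8 higher and 10 lower, or 9 and 9 after centring. The complement genes outside the members thus showed no common direction.

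Of 11 listed classical pathway genes 6 had a probe set of their own, and of these 6 the C1q chains were expressed. The genes for the proteases that C1q activates, *C1ra* and *C1s1*, and *C2*, their substrate, had probe sets below the threshold. In the lectin pathway 3 of 8 genes were expressed. Beside *Masp1*, *Masp2*, which encodes the protease that cleaves C4 and C2, had signals of 401 and 591, a Log2 ratio of 0.56. Its second probe set, below the threshold, had 32.8 and 3.38 (-3.27), and the mean over both was -1.36, so the direction rests on the brighter one. *Fcnb*, which encodes ficolin B, a recognition protein of neutrophils and other myeloid cells, had 863 and 552, a Log2 ratio of -0.64. *Cfp*, encoding properdin, which stabilises the C3 convertase of the alternative pathway and is stored in neutrophil granules, had 676 and 463, a Log2 ratio of -0.55, and -0.21 on its other probe set. Beside these, 4 of 6 expressed neutrophil markers and 5 of 6 monocyte markers were lower, with medians of -0.18 and -0.28. The summed neutrophil signal was 68424 and 68496, and the summed monocyte signal 31399 and 26952. The part of these cells in the *Fcnb* and *Cfp* values was not tested.

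None of the 6 genes of the terminal pathway with a probe set was expressed, *Hc* (C5) among them, the brightest probe sets being at 142 in WT and 95.7 in CD47 KO cells. In all, 24 complement genes with 29 probe sets stayed below the medians of both arrays. Of these probe sets 9 were more than 2-fold higher and 6 more than 2-fold lower, at signals no higher than 159 and 116, and no direction was read from them. With no threshold, 8.58% of 34945 probe sets were more than 2-fold higher and 12.8% more than 2-fold lower. These shares include the expressed probe sets, and shares for probe sets below the threshold alone were not computed.

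Regulators were divided. *Clu*, encoding clusterin, a soluble inhibitor of the terminal complex that is abundant in astrocytes, had signals of 7810 and 9625 on its brightest probe set, a Log2 ratio of 0.30, and 0.19 to 0.33 on the 4 probe sets. *Vtn*, encoding vitronectin, had 2288 and 2589, a Log2 ratio of 0.18. Both soluble regulators were thus slightly higher where *Serping1* was lower. Of 8 expressed astrocyte markers 7 were higher, with a median of 0.27 and summed signals of 26806 and 32206, and their part in the *Clu* value was not tested. Of 7 expressed membrane regulators 5 were lower, and none passed 2-fold on its brightest probe set. *Cd59a*, encoding the membrane inhibitor of the terminal complex, had 985 and 560, a Log2 ratio of -0.81, or -0.34 on its other probe set. *Susd4*, a complement inhibitor gene, had 1074 and 808, a Log2 ratio of -0.41. *Cr1l*, which encodes Crry, the rodent regulator of C3 convertases, had 7474 and 8434 on its brightest probe set (Log2 ratio 0.17), while a dim one had 162 and 61.6 (-1.39). *Cr1l* was bright in both pools, and its probe sets did not settle a direction.

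Beside *C3ar1* and *C5ar1*, the receptors on the list include the integrins that bind fragments of C3. *Itgb2*, the shared β chain, had signals of 5372 and 5879, a Log2 ratio of 0.13. *Itgam*, the α chain of complement receptor 3 (outside the rule for named genes, and added after its value was seen), had 1378 and 1694, a Log2 ratio of 0.30. *Itgax*, the α chain of complement receptor 4 (CD11c), had 76.6 and 251, a Log2 ratio of 1.71, and was past 2-fold, the only one of the 8 expressed receptor genes to be so. Of 8 expressed receptor genes 5 were higher and 3 lower, with a median of 0.09, or 4 and 4 after loess. *Itgax* was below the median in WT cells and counted as expressed only through its CD47 KO signal, so its difference was partly fixed by the threshold. *Cr2*, encoding complement receptor 2, and *Vsig4* (both outside the rule for named genes) were below the threshold on both arrays. *Cr2* had 36.1 and 75.7 (Log2 ratio 1.07) and *Vsig4* 18.7 and 8.08 (-1.21), and no direction was read from them.

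**Figure D4:**
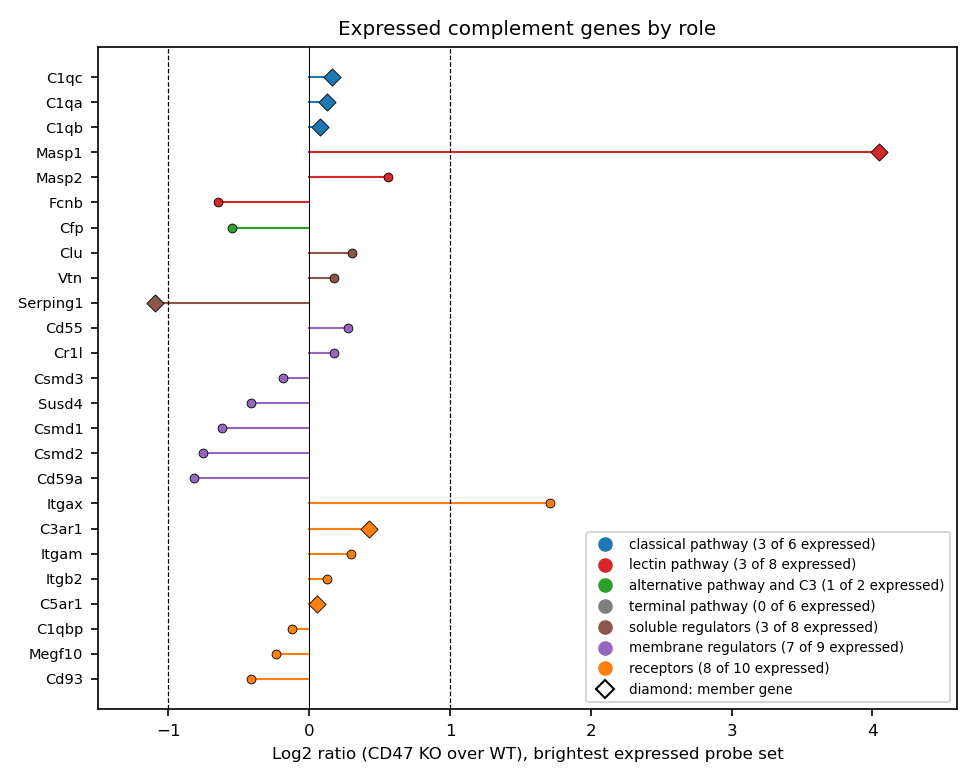
Log2 ratio (CD47 KO over WT) of the 25 expressed complement genes at their brightest probe set, grouped and coloured by role, with member genes as diamonds, 2-fold as dashed lines and 1 array per genotype. *Masp1* (4.05) and *Itgax* (1.71) lie above 2-fold, *Serping1* (-1.09) lies below it, and no gene of the terminal pathway was expressed.

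**Figure D5:**
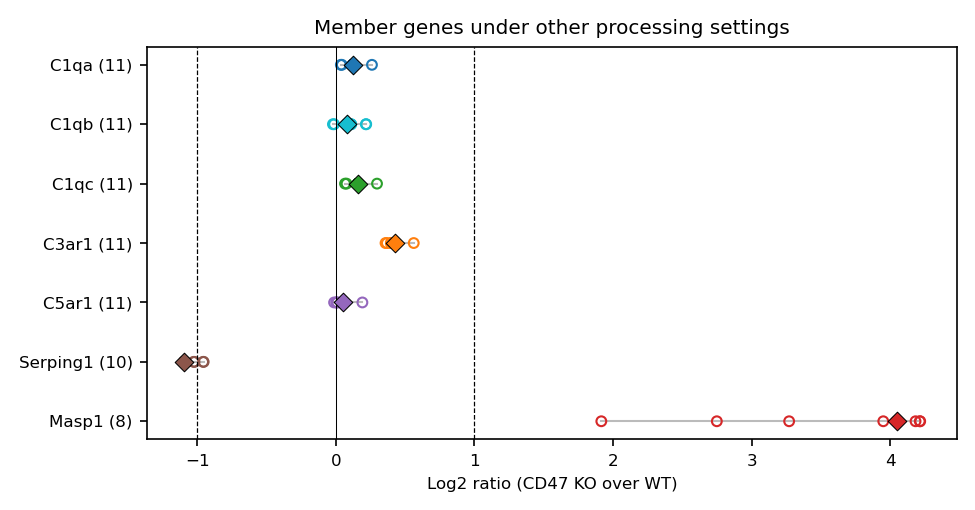
Log2 ratio (CD47 KO over WT) of the 7 member genes as reported (diamonds) and under the other processing settings that gave a value (open circles, number in parentheses), with 2-fold as dashed lines. *C3ar1* stays between 0.36 and 0.56, *C1qb* and *C5ar1* reach values on both sides of 0, *Serping1* lies between -1.09 and -0.95, and *Masp1* spreads from 1.92 to 4.22.

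The plot of processing settings gives the range of each gene's value. Changes of the threshold or of the choice of probe set could not alter the value of *C1qa* or *C1qc*, which have 1 bright probe set each, so their ranges of 0.04 to 0.26 and 0.07 to 0.30 come from the scaling. The scaling also set the lowest and highest values of *C3ar1* and *C5ar1*. *C1qb* was highest, at 0.22, without probe sets ending in _x_at, _s_at or _a_at and fell below 0 after quantile normalization and loess. *Masp1* changed most with the treatment of low signals and with the probe sets averaged.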

How the data were processed

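RNA of brain mononuclear cells was measured on GeneChip Mouse Genome arrays, with 1 pool of mice and 1 array per genotype. The authors processed the scans with the Expression Console Software into MAS5 signals, a linear intensity per probe set (version not given in the sources used). A mean of the deposited intensities after removal of 2% at each end was 500.002 on both arrays. Detection calls are not used here. The platform annotation named 1 gene for 34945 probe sets and several for 932, which were left out, while 9160 were unnamed here.

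The Log2 ratio was taken with no offset. A gene's value is that of its expressed probe set with the highest mean signal. Past 2-fold is a size, not a test. Genes named in the text are the members, the listed complement genes past 2-fold on any expressed probe set, and the 3 brightest expressed genes of each role. *Itgam*, *Cr2*, *Vsig4* and *Csmd1* are given values outside this rule. The members and lists were chosen with earlier results of these data known. The calculation was run on a simulated array with planted changes past 2-fold. That run does not bear on changes as small as those of the C1q chains. Python 3.11.15, pandas 2.3.3, numpy 2.4.6 and statsmodels 0.14.6 were used. Results were recomputed under 10 other settings (threshold, scaling, low signals, choice of probe sets) and 1 more added after the data were seen (the mean over all probe sets of a gene).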

Additional observations from a re-analysis of the deposited data

How the results depend on the processing

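The 11 alternatives changed the signal threshold, the scaling, the treatment of low signals or the choice of probe set. No paired analysis was possible because each genotype has 1 array. A value was taken to have moved when it changed by more than the SD of Log2 ratios between probe sets of a gene of like brightness, 0.44 in the brightest and 0.84 in the dimmest 25%. The Log2 ratios of *C1qa*, *C1qb*, *C1qc*, *C3ar1*, *C5ar1* and *Serping1* moved by less under every alternative that gave a value, and so did the median of the member genes (0.04 to 0.26), though many settings could not alter genes with 1 bright probe set. The limit of 0.44 is wider than the ratios of the C1q chains and *C5ar1* themselves. The turns of *C1qb* and *C5ar1* to below 0 thus counted as not moved, and the label does not show that their direction is stable. Outside the members, *Masp2* moved to -1.36 as the mean over all its probe sets. *Csmd1*, a membrane regulator gene, moved from -0.62 to 0.57 in the same way. *Cr1l* moved from 0.17 to -0.61 as the mean over expressed probe sets and to -0.96 over all. *Masp1* moved to 2.75 with a constant added and to 1.92 as the mean over all its probe sets. It had no value with the threshold at the 75th percentile, with the median required on both arrays or without probe sets ending in _x_at, _s_at or _a_at, and *Serping1* had none at the 75th percentile.

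The member probe sets more than 2-fold higher went from 2 to 0 under those same 3 settings. The count of those lower went from 1 to 0 at the 75th percentile, with centred arrays and with the constant added. In the complement list, the genes higher numbered 10 with no threshold, 0 at the 75th percentile, 0 with both arrays required and 1 without those probe sets, against 2 as reported. The genes lower numbered 6 with no threshold, 0 at the 75th percentile, 0 with centred arrays, 0 with the constant added and 2 as the mean over all probe sets, against 1. The rise to 10 and 6 comes with 49 genes in place of 25, and the causes of the other changes were not tested. With 1 array per genotype, the precision of these values is unknown.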

Other observations

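The globular domain of C1q is shared by a family of secreted proteins outside complement. Of 22 listed genes of this family, chosen after the complement values were seen, 20 had a named probe set and 10 were expressed, 6 higher and 4 lower in CD47 KO cells, with a median Log2 ratio of 0.28. *Cbln3*, a cerebellin gene of cerebellar granule neurons, went from 787 (WT) to 1425 (CD47 KO), a Log2 ratio of 0.86, or 0.22 on its other probe set. *Cbln1*, which encodes a synapse organiser of the cerebellum, had 1062 and 1309 on its brightest probe set, a Log2 ratio of 0.30, and its 3 probe sets ranged from -0.05 to 0.30. *C1ql3*, a neuronal member, had 945 and 669, a Log2 ratio of -0.50. *Mmrn2*, a matrix protein gene of endothelial cells, had 381 and 142 and was the only one past 2-fold, with a Log2 ratio of -1.42, and its other expressed probe set had -2.14. The counts of 6 higher and 4 lower were also found after centring, quantile normalization and loess, and the family showed no common direction.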
